A study of Mus musculus with 8 samples.

Results

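The genes described here are those that carry a new protein into the endoplasmic reticulum (ER) and onward to the Golgi and back: the signal recognition particle, the translocon, signal peptidase, the COPII and COPI vesicle coats, cargo receptors, membrane-fusing SNARE proteins and Golgi matrix proteins. They were chosen by the start of their gene symbol, with no measured value used, among probe sets annotated to a single gene. This gave 78 genes, read by 109 of the 12488 probe sets of the array, out of 8251 genes with a single symbol. A gene with several probe sets was represented by the one with the highest mean over the 8 arrays. Of the 78 genes, 65 passed the filter on low values and were tested, and 13 did not: Sec62, Sec63, Ssr4, Arfgap3, Kdelr3, Tmed8, Bet1, Gosr1, Stx1a, Stx2, Stx6, Stx8 and Golga3. The symbol rule also took in 3 genes kept as a separate group, namely Sec1, a fucosyltransferase, and the lipid-binding proteins Sec14l1 and Sec14l2. Arf and syntaxin (Stx) genes were taken by symbol alone and not sorted by the membrane at which they act. Not all of them need belong to the route between ER and Golgi.

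The study measured mRNA of sorted mouse B cells on Affymetrix arrays in 4 groups with 2 arrays each. All mice were F1 offspring of QM and C57BL/6 mice. QM mice carry a rearranged antibody heavy chain gene specific for the hapten NP. Resting B cells, GL7- and B220+, came from unimmunised mice. The other groups were GL7+ B220+ cells, the surface phenotype of germinal centre B cells. The T-dependent (TD) day 4 group came from mice primed with 50 µg of alum-precipitated chicken gamma-globulin, the carrier protein, with heat-killed B. pertussis, and boosted after 5 weeks with soluble NP-CGG, NP coupled to that carrier, at 50 µg. The TD day 10 group came from unprimed mice given 50 µg of alum-precipitated NP coupled to chicken gamma-globulin with heat-killed B. pertussis. The T-independent (TI) day 4 group came from mice given 30 µg of NP-Ficoll, a polysaccharide antigen that drives B cells without T cell help. Injections were intraperitoneal. The 2 samples of a group were separate pools of mice: 6 and 9 for resting, 6 and 9 for TD day 4, 6 and 6 for TD day 10, and 4 and 10 for TI day 4. The design sets TI day 4 beside the carrier-primed TD day 4 response because their time courses are comparable, and TD day 10 stands for the later peak of the unprimed response. Pool spread, and not the spread between single mice, is what the tests measure.

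Secreted and membrane proteins enter the ER through the Sec61 channel. The signal recognition particle brings the ribosome there, signal peptidase trims the signal sequence, and COPII vesicles bud from the ER with folded cargo. COPI vesicles and KDEL receptors return escaped residents from the Golgi, and SNARE proteins fuse each vesicle with its target. B cells that become antibody-secreting cells enlarge this route, while resting B cells make antibody chains chiefly for the surface receptor.

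Values are array intensities as deposited, on a linear scale, and each gene is compared only with itself. Values under the floor of 81, the median of all values, were set to 81 before log2 was taken, so a fold against a group at the floor is a lower bound. A gene is said to rise or fall only where limma's Benjamini-Hochberg adjusted p, over all 7253 probe sets tested, was under 0.05; log2 differences are given with their standard errors (SE), and n is 2 arrays a group throughout. The arrays had medians of 77 to 89. All 7 measured genes of a B cell marker list were above the filter, with summed intensities from 21020 to 33786 over the 8 arrays. Resting arrays read 25554 and 23129 for a red cell list against 706 to 2639 elsewhere, and 6068 and 6411 for a neutrophil list against 907 to 2311. The part of those lists in any difference from resting cells was not tested.

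Between TI day 4 and TD day 4, 2 of the 65 tested genes rose, Sec61a1 and Kdelr1, and none fell, beside 1.45% of all tested probe sets called in either direction (0.731% higher and 0.717% lower). At an unadjusted p under 0.05, 16 genes and 14.4% of all probe sets passed. The median log2 difference of the 65 genes was 0.29, against -0.01 for all probe sets, and 46 of the 65 were above 0. Both TI arrays were above all 4 TD arrays for 26 of the 65 (40%) and below all 4 for 5 (7.69%), where 13.7% and 18.6% of the tested probe sets were. Over all 78 genes, with no filter, the counts were 28 above (35.9%, against 12.5% of probe sets) and 6 below (7.69%, against 14.8%). Both TI arrays were above all 6 other arrays for 15 of the 65 (23.1%, against 7.4% of tested probe sets) and below all 6 for Arf6 alone (against 7.83%). A second Arf6 probe set, at 192 and 158 in TI cells and 186 and 138 in resting cells, did not show the latter. These are descriptions and carry no test of the group of genes as a whole. In sorted bulk cells, more cells of one kind and more RNA per cell cannot be told apart.

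**Figure D1:**
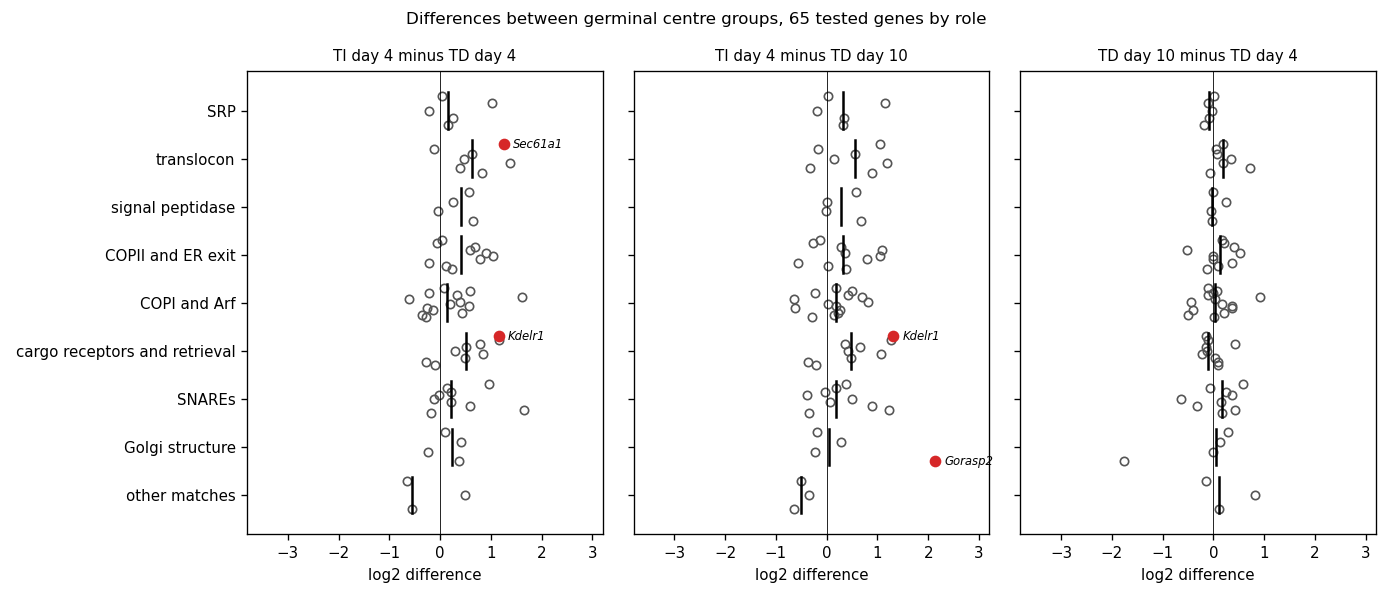
Log2 differences between the germinal centre groups (x axis) for the 65 tested genes by role (y axis). Each circle is a gene, filled red where limma's adjusted p was under 0.05, and the black bars are role medians, which for the translocon lie at 0.63, 0.56 and 0.19 from the left panel to the right; Sec61a1, Kdelr1 and Gorasp2 are the genes called.

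The signal recognition particle, the first step, had 5 tested members with a median log2 difference of 0.15 between TI and TD day 4. Srp14, which with Srp9 forms the domain that pauses translation, read 1042 to 1235 over the 8 arrays. Its ratio of highest to lowest reading, 1.19, was the smallest among the members above the floor on every array. It differed by 0.03 on the log2 scale between TI and TD day 4 (95% interval -0.33 to 0.40). Srp54b, annotated as a copy of the subunit that binds the signal sequence, read 1753 and 946 in resting cells and 964 to 1327 elsewhere, and reads of near-identical Srp54 copies are uncertain. Srp19, an assembly subunit, read 392 and 232 in TI cells, 108 and 203 in TD day 4, 176 and 107 in TD day 10 and -68 and 99 in resting cells. Both TI arrays were the highest, but the difference from resting cells missed the threshold (adjusted p = 0.057), as did that from TD day 4 (log2 1.03 ± 0.42 SE, adjusted p = 0.35).

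The translocon was the role with the largest median, 0.63 over 7 tested members. By brightest probe set, 5 of the 7 had both TI arrays above all 4 TD arrays. For Ssr1, 1 of the 5, a second probe set went the other way. It read 27 and 35 in TI cells, under the floor, and 76 to 127 on the TD arrays. Sec61a1, the channel-forming subunit, read 1314 and 1309 in TI cells, 565 and 541 in TD day 4, 636 and 638 in TD day 10 and 803 and 586 in resting cells. The TI arrays stood apart from the other 6, and the TD groups lay close to each other. Sec61a1 was 2.37-fold higher in TI than in TD day 4 (log2 1.25 ± 0.19 SE, adjusted p = 0.039). Against TD day 10 it was 2.06-fold higher, which narrowly missed the threshold (adjusted p = 0.054). Its second probe set read 1162 and 1627 in TI cells, 612 and 598 in TD day 4 and 361 and 553 in TD day 10. There the calls fell the other way, with the difference from TD day 10 called (3.08-fold, adjusted p = 0.044) and that from TD day 4 not (log2 1.18 ± 0.28 SE, adjusted p = 0.12).

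Sec61b, the small beta subunit of the channel, formed steps over the groups. It read 930 and 889 in resting cells, 1282 and 1297 in TD day 4, 1394 and 1328 in TD day 10 and 1909 and 2097 in TI cells. The arrays of resting, TD and TI cells did not overlap, and only the difference of the outer groups was called: Sec61b was 2.2-fold higher in TI than in resting cells (adjusted p = 0.0074). The intermediate steps had adjusted p of 0.11 (TI against TD day 4, log2 0.63 ± 0.15 SE), 0.096 (TD day 4 against resting) and 0.058 (TD day 10 against resting).

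Tram1, which contacts the growing chain as it enters the membrane, read 2061 and 1573 in TI cells against 1011 and 1018 in TD day 4, 948 and 992 in TD day 10 and 847 and 879 in resting cells. Ssr2, a subunit of the translocon-associated TRAP complex, read 860 and 1316 in TI cells against 401 and 416, 425 and 510, and 488 and 271 in the same order. For both genes the TI arrays were above all the others. Both rose from resting to TI cells, Tram1 by 2.09-fold (adjusted p = 0.017) and Ssr2 by 2.93-fold (adjusted p = 0.04). Neither difference from TD day 4 passed (log2 0.83 ± 0.18 SE, adjusted p = 0.096 for Tram1, and 1.38 ± 0.34 SE, adjusted p = 0.13 for Ssr2). The second Tram1 probe set read 871 and 709 in TI cells, 674 and 626 in TD day 4 and 746 and 535 in TD day 10. There the TI and TD day 10 arrays overlapped, and the difference from resting cells was not called (adjusted p = 0.071).

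Signal peptidase gave a smaller difference. Spcs2, a noncatalytic subunit, read 1226 and 1255 in TI cells, 800 and 793 in TD day 4, 887 and 684 in TD day 10 and 624 and 718 in resting cells. TI cells were again the highest, and the rise over resting cells was 1.85-fold (adjusted p = 0.034), while the difference from TD day 4 was not called (log2 0.64 ± 0.18 SE, adjusted p = 0.19). Sec11c, a catalytic subunit, stayed within 838 to 1243 over the 8 arrays.

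Promoters were read for the members because several genes of this route are textbook targets of the unfolded protein response, in which Xbp1 binds the unfolded protein response element (TGACGTGG, searched on both strands). RefSeq promoters on GRCm38.p6, from 250 bases before to 50 after a start site, were matched for 66 of the 78 genes. Those of Arf6, Golga4, Golga7, Kdelr2, Lman1, Sec11c, Sec61a1, Srp19, Srp68, Ssr2, Tmed7 and Tram1 were not read. The element was in 6 of the 66 (9.09%), Arf1, Copb1, Copb2, Kdelr3, Sec23a and Stx5a, against 1.14% of the array's genes and 0.714% of all genes of the table. Its core CACGT, which the element contains, was in 34 of the 66 (51.5%), against 27.8% and 21.8%. CCACG, which overlaps both, was in 44 (66.7%), against 48.8% and 35.5%. The longer ER stress element and the ER stress element II were in none of the 66, where 0.183% and 0.107% of the array's genes held them. A match is a run of letters and not a shown binding site.

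The 100 bases before the start site are shown for carriers of the element and for genes called between groups that hold none in this stretch, with capitals marking the element or CACGT on either strand. The carriers are examples out of the genes with the whole element in this stretch (Arf1, Copb1 and Kdelr3). In Copb2 the element starts at position -7 and ends in the transcript. The carriers shown are Copb1 (chr7:114254681-114254780, minus strand) and Kdelr3 (chr15:79516308-79516407, plus strand). The called genes are Sec61b (chr4:47474561-47474660, plus strand) and Kdelr1 (chr7:45872740-45872839, plus strand). All 4 stretches lie directly upstream of the annotated transcript.
Copb1: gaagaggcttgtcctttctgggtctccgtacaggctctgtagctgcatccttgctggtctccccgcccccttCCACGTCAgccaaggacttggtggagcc
Kdelr3: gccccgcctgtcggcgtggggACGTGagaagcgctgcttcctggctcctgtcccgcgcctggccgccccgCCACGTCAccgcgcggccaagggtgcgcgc
Sec61b: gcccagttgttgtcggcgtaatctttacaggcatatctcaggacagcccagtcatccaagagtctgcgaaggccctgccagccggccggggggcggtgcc
Kdelr1: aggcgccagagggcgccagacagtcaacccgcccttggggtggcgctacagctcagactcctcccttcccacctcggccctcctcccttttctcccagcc

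Of the 6 carriers, 5 were called in no comparison. Copb1, a COPI coat subunit, read 244 and 159 in TI cells against 84 to 211 in the TD groups, and Kdelr3 was too dim to test. Of the 12 members called in any comparison, 9 had a promoter in the table and 1 of them, Stx5a, held the element, at positions 10 and 40 of the transcript, its first base counted as 1.

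In COPII and at ER exit sites, 10 members were tested and the median log2 difference between TI and TD day 4 was 0.41. Sec13, a subunit of the outer coat, read 380 and 481 in resting cells, 507 and 485 in TD day 4, 639 and 683 in TD day 10 and 768 and 837 in TI cells. The groups did not overlap, and TI cells were 1.88-fold above resting cells (adjusted p = 0.027), while the difference from TD day 4 was 0.69 ± 0.18 SE on the log2 scale (adjusted p = 0.14). Sec24c, which selects cargo, was nearly flat at 821 to 1168.

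Sar1b, the GTPase that starts the COPII coat, followed another pattern. It read 195 and 219 in resting cells, 372 and 407 in TD day 4, 413 and 493 in TD day 10 and 344 and 405 in TI cells. Every germinal centre array was above both resting arrays, and Sar1b was the only member whose brightest probe set was called against resting cells in all 3 comparisons. It rose by 1.88-fold at TD day 4 (adjusted p = 0.03), by 2.18-fold at TD day 10 (0.013) and by 1.81-fold in TI cells (0.036). Those comparisons share the resting arrays. Between TI and TD day 4 it differed by -0.06 on the log2 scale (95% interval -0.50 to 0.38). Its close relative Sar1a stayed at 516 to 698. A second Sar1b probe set was under the floor on all 8 arrays and was not tested.

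**Figure D2:**
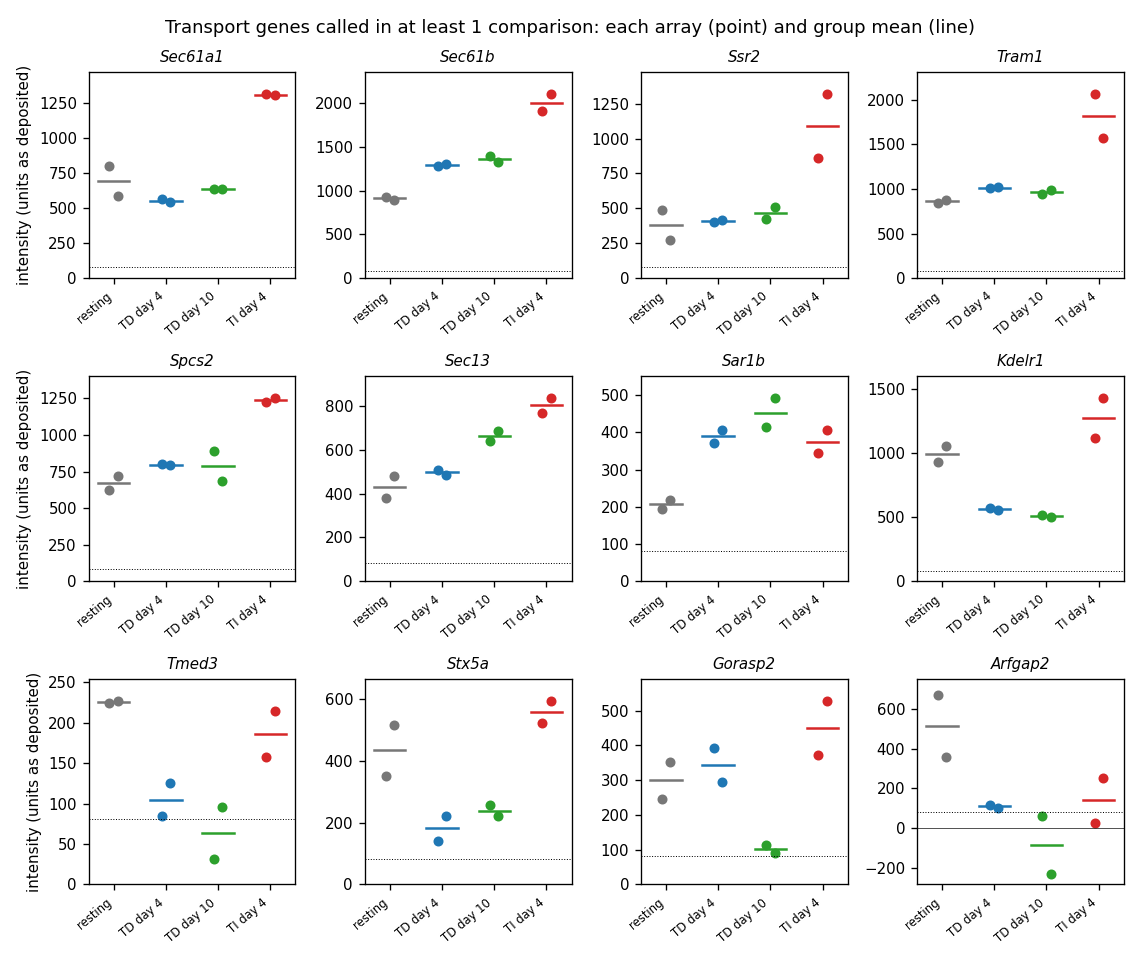
Intensity as deposited (y axis, linear, a separate scale for each gene) on each of the 8 arrays by group (x axis) for the 12 genes called in at least 1 comparison. Points are arrays, short lines are means of 2 arrays and the dotted line is the floor of 81; the TI points are above all others for Sec61a1, Sec61b, Ssr2, Tram1, Spcs2, Sec13, Kdelr1 and Stx5a, and Sar1b is low in resting cells alone.

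The group of COPI coat, Arf and Arfgap genes had 14 tested members and a median of 0.14 between TI and TD day 4. Arf1, which starts the COPI coat, read 2544 to 3356 over the 8 arrays and differed by 0.07 (95% interval -0.34 to 0.47). The alpha coat subunit Copa was as flat, at 933 to 1248. Arf2 read 216 and 254 in TI cells and 132 to 177 elsewhere, with no call (adjusted p = 0.28). Arfgap2, which switches Arf1 off, read 669 and 359 in resting cells, 118 and 102 in TD day 4, 64 and -227 in TD day 10 and 29 and 254 in TI cells. Both resting arrays were above all others, and the fall to TD day 10, at least 6.05-fold, was the one called (adjusted p = 0.035).

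Among cargo receptors, 6 of 9 tested members had both TI arrays above all 4 TD arrays. Kdelr1, a KDEL receptor that retrieves ER residents, read 1117 and 1436 in TI cells, 576 and 555 in TD day 4, 517 and 504 in TD day 10 and 929 and 1056 in resting cells. The TD arrays were low, and resting and TI cells were both high. Kdelr1 was 2.24-fold higher in TI than in TD day 4 (log2 1.16 ± 0.18 SE, adjusted p = 0.042) and 2.48-fold higher than in TD day 10 (adjusted p = 0.023). From resting cells it fell 1.75-fold to TD day 4 (adjusted p = 0.045) and 1.94-fold to TD day 10 (adjusted p = 0.024), and it differed by 0.35 ± 0.18 SE in TI cells (adjusted p = 0.33).

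Tmed3, a cargo receptor of the p24 family, was also low in the TD groups. It read 224 and 227 in resting cells, 85 and 125 in TD day 4, 31 and 96 in TD day 10 and 158 and 215 in TI cells. The fall from resting cells was 2.19-fold in TD day 4 (adjusted p = 0.046) and at least 2.56-fold in TD day 10 (adjusted p = 0.024). TI cells did not differ from resting cells by a called amount (log2 -0.29 ± 0.25 SE, adjusted p = 0.58). Surf4, an ER export receptor, read 2120 and 3113 in resting cells, 1654 to 1894 on the TD arrays and 2591 and 1939 in TI cells, with no call.

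SNAREs had 9 tested members of 15. Stx5a, the syntaxin at which ER-derived vesicles fuse with the Golgi, read 352 and 518 in resting cells, 141 and 222 in TD day 4, 256 and 221 in TD day 10 and 522 and 595 in TI cells. The TD arrays were the 4 lowest. Stx5a fell 2.41-fold from resting cells to TD day 4 (adjusted p = 0.048), and its difference between TI and TD day 4, the largest of all members, narrowly missed (log2 1.66 ± 0.29 SE, adjusted p = 0.06). Gosr2, a Golgi SNARE, stayed at 910 to 1162 by its brightest probe set. A dim one read 219 and 284 in TI cells and no more than 75, under the floor, elsewhere, so it passed the filter through the TI arrays alone and no test is given for it.

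Of the 4 tested Golgi structure members, Gorasp2, a stacking protein (with a probe set type whose probes can be shared by similar sequences), was low at TD day 10 alone. It read 113 and 90 there, 393 and 295 in TD day 4, 373 and 528 in TI cells and 245 and 353 in resting cells. It was 4.4-fold higher in TI than in TD day 10 (adjusted p = 0.022) and fell 2.92-fold from resting cells to TD day 10 (adjusted p = 0.024). Its difference between the TD groups, -1.76 ± 0.29 SE, was not called (adjusted p = 0.34). Golga5, a Golgi tether, read 209 and 158 in TI cells and 127 to 161 elsewhere, and Golga7 stayed at 475 to 642. Sec1 and Sec14l2, outside the coats, had both TI arrays below all 4 TD arrays, at 40 and 67 against 91 to 146 and at 170 and 235 against 248 to 398, with no call.

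Against TD day 10, 2 of the 65 genes were higher in TI cells, Kdelr1 and Gorasp2, and none lower, beside 2.4% of all tested probe sets called in either direction (1.2% higher and 1.2% lower); 14 genes had an unadjusted p under 0.05, beside 17.2% of probe sets. The median log2 difference was 0.27, against -0.08 for all probe sets. This comparison shares the TI arrays with the one against TD day 4. Between TD day 10 and TD day 4, limma called 0 of the 65 genes and 0% of all probe sets, and 2 genes and 373 probe sets had an unadjusted p under 0.05; a pseudocount of 32 in place of the floor called 7 probe sets and no filter 14, with no member among them. The members' median was 0.03, against 0.02 for all probe sets.

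The calls between TI and TD cells were narrow. Sec61a1 and Kdelr1 were each called against TD day 4 in 5 of 10 other settings, and both calls ended without any one of the 4 arrays compared (adjusted p from 0.15 to 0.22 for Sec61a1 and from 0.074 to 0.22 for Kdelr1, with log2 differences of at least 0.98 in each of those fits). The calls of Kdelr1 and Gorasp2 against TD day 10 likewise ended without any one of their 4 arrays (adjusted p from 0.053 to 0.12 and from 0.071 to 0.14).

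Other measures moved with the TI group. A plasma cell marker list, 8 genes measured and 6 tested, summed to 11714 and 15624 in TI cells, 2971 to 4399 on the TD arrays and 2391 and 2306 in resting cells, and the plasma cell genes Sdc1 and Prdm1 were too dim to test, with highest readings of 106 and 83. Most of this TI sum was Jchain, at 7347 and 9356. Xbp1, Tnfrsf17 and Creld2 also had both TI arrays above all others. Irf4 did not, at 125 and 516 in TI cells against 59 to 263 on the TD arrays. Fkbp11, at 87 and 188 in TI cells, passed the filter through the TI arrays alone. A macrophage list of 11 genes, 8 tested, summed to 5477 and 4311 in TI cells against 666 to 1606 on the TD arrays and 2860 and 3191 in resting cells. Most of the TI sum was Apoe, at 4213 and 3371, and Adgre1, Marco and Mrc1 were below the floor on every array. C1qb, Csf1r, Cd68 and Vcam1 also had both TI arrays above all 4 TD arrays, while C1qa and C1qc did not. C1qb read 871 and 1066 in TI cells against 598 to 649 on the TD arrays. The macrophage list's median log2 differences were 0.68 (TD day 4) and 0.42 (TD day 10), with 0 and 1 of 8 tested genes called higher. A germinal centre list of 6 measured genes, 5 tested, summed to 3301 and 3213 in TI cells, 4438 to 5277 on the TD arrays and 2171 and 1877 in resting cells. The red cell list summed to 2376 and 2639 in TI cells against 706 to 1278 on the TD arrays. Its globin genes did not follow. Hba-a1 read 508 and 490 in TI cells against 285 to 696 on the TD arrays, and Hbb-b2 110 and 59 against 65 to 329. In that list, 1 of 5 tested genes was called higher in TI cells against each TD group. The list's median log2 differences were 0.00 (TD day 4) and -0.16 (TD day 10). The part of these lists in the translocon and Kdelr1 differences was not tested. The 3' to 5' signal ratio of Gapdh, a measure of RNA integrity, was 1.24 and 1.68 in TI cells, 0.836 to 0.981 on the TD arrays and 0.867 and 1.59 in resting cells, and with it as a covariate limma called 0 members between TI and TD day 4 and 0% of all probe sets (14 members and 12.6% of probe sets at an unadjusted p under 0.05). The log2 differences were then 1.48 for Sec61a1 and 0.97 for Kdelr1.

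From resting to TI cells, 7 of the 65 genes rose and none fell (10.8%), beside 9.4% of all tested probe sets called in either direction and 5.42% called higher and 3.98% lower. The risers were Sec61a1, 1.91-fold higher (adjusted p = 0.032, and 0.078 by its second probe set), Sec61b, Ssr2, Tram1, Spcs2, Sar1b and Sec13. By role, 4 of the 7 tested translocon members, 1 of 4 of signal peptidase and 2 of 10 of COPII rose. The median was 0.30 over all 65 and 0.93 for the translocon, against -0.02 for all probe sets.

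From resting to TD cells, with rises and falls counted together, members were called no more often than probe sets at large. Of the 65, 1 rose and 3 fell in TD day 4 (6.15%), beside 9.42% of all probe sets (5.83% higher and 3.58% lower), and 1 rose and 4 fell in TD day 10 (7.69%), beside 10.9% (6.45% higher and 4.44% lower). The riser was Sar1b both times, and Kdelr1 and Tmed3 fell both times, with the resting arrays shared. Arf6 split by probe set, and its brightest was not called. The second read 357 and 446 in TD day 4, 383 and 360 in TD day 10 and 186 and 138 in resting cells. That probe set rose 2.49-fold in TD day 4 (adjusted p = 0.019) and 2.32-fold in TD day 10 (adjusted p = 0.022). Medians were -0.02 in TD day 4 and 0.12 in TD day 10, against -0.02 and 0.04 for all probe sets. All 4 TD arrays were above both resting arrays for 13 members (20%, against 19% of tested probe sets) and below both for 10 (15.4%, against 16%). All 6 germinal centre arrays were above both resting arrays for 8 members (12.3%, against 12.7%) and below both for Arf3, Arfgap2, Sec24c and Tmed3 (6.15%, against 12.1%). Cargo receptors had a median of -0.42 in TD day 4 and -0.05 in TD day 10, and the translocon 0.17 and 0.36. Ssr3, a TRAP subunit named here after its values were seen, again split by probe set. Its brightest read 532 and 539 in resting cells and was called in no comparison. Another read 54 and 98 in resting cells, 428 and 396 in TD day 4, 270 and 416 in TD day 10 and 567 and 604 in TI cells, and was called against resting cells in all 3 comparisons (at least 4.62-fold, 3.76-fold and 6.57-fold, adjusted p of 0.0046, 0.0065 and 0.0026).

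**Figure D3:**
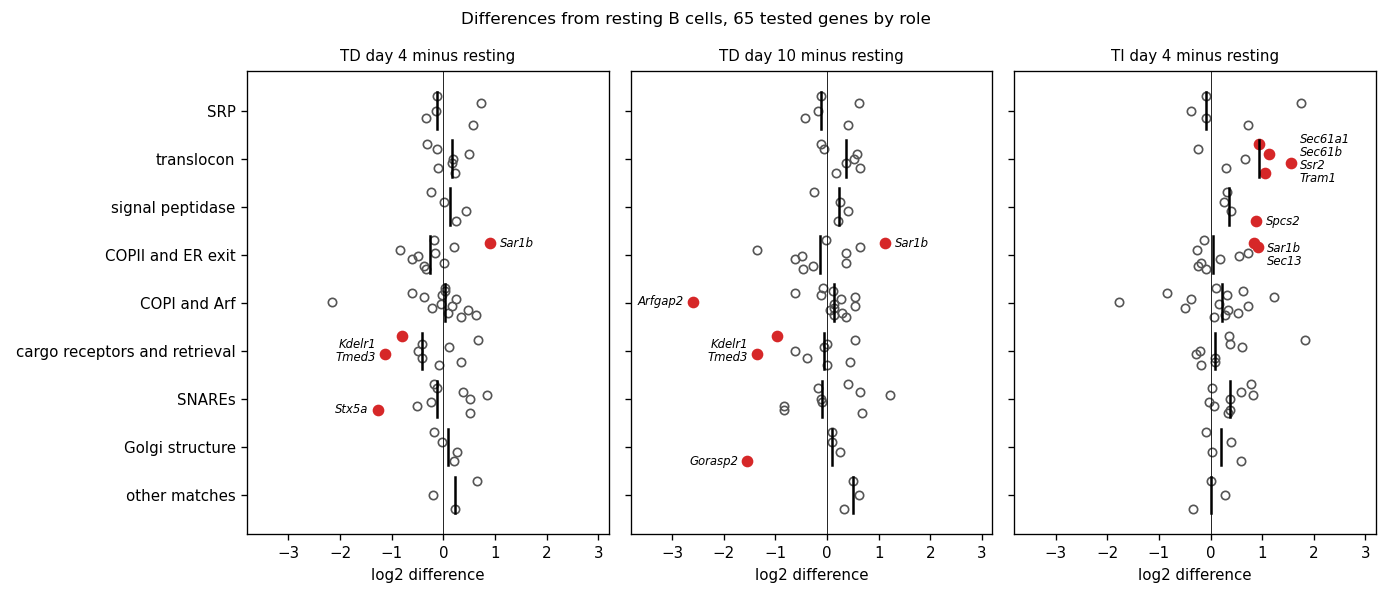
Log2 differences of each germinal centre group from resting B cells (x axis) for the 65 tested genes by role (y axis), drawn as in the plot between germinal centre groups: circles are genes, red where limma's adjusted p was under 0.05, and bars are role medians. The translocon median is 0.17, 0.36 and 0.93 from left to right, and Kdelr1 and Tmed3 lie to the left in the TD panels.

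Among the calls against resting cells, that of Sec61b in TI cells held without each of the 4 arrays in turn (adjusted p from 0.019 to 0.042). That of Sar1b in TD day 10 ended without TD day 10 array 2 alone (0.072), that of Sec61a1 in TI cells without either TI array (0.12), and that of Tram1 without resting array 1 (0.056) or TI array 1 (0.058). Sec13 held only without resting array 2 (0.022), and Ssr2 in TI cells and Kdelr1 and Gorasp2 in TD day 10 only without resting array 1 (0.035, 0.04 and 0.038). The other calls, of Spcs2 and Sar1b in TI cells, of Arfgap2 and Tmed3 in TD day 10 and of all 4 members in TD day 4, ended without any one array compared, with adjusted p from 0.053 to 0.2.

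Several members had narrow ranges. Of the 50 members above the floor on all 8 arrays, 10 had a highest reading under 1.5 times the lowest, a share of 20% against 17.1% of all such probe sets, with a median ratio of 1.94 in both. They were Srp14, Gosr2, Arf1, Copa, Sar1a, Golga7, Srp68, Sec24c, Tmed7 and Sec11c.

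Other genes of the secretory route, from a list of neighbouring complexes, had 46 of 57 measured genes tested. Between TI and TD day 4, 1 rose and none fell (1.45% of all tested probe sets were called), against TD day 10 2 rose and none fell (2.4%), and from resting to TI cells 4 rose and 1 fell (9.4%). The call against TD day 4 was Rpn2, a subunit of the oligosaccharyltransferase that attaches sugars to chains leaving the translocon. As for Gorasp2, the probe sets of Rpn1 and Rpn2 are of a type whose probes can be shared by similar sequences. Rpn2 read 1356 and 1701 in TI cells, 638 and 569 in TD day 4, 635 and 710 in TD day 10 and 681 and 827 in resting cells. The TI arrays stood apart, 2.52-fold above TD day 4 (adjusted p = 0.035) and 2.26-fold above TD day 10 (adjusted p = 0.04). The 8 tested subunits of that enzyme had a median log2 difference of 0.70 from TD day 4, against 0.12 for all 46 genes and -0.67 for the 5 tested Rab GTPases of ER and Golgi, and 3 of them, Rpn1, Rpn2 and Ostc, rose from resting to TI cells.

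Not every subunit followed. Stt3b, a catalytic subunit named here after its values were seen, read 752 and 758 in TI cells, 1126 and 999 in TD day 4, 1008 and 1169 in TD day 10 and 401 and 533 in resting cells. It rose from resting cells to TD day 4 by 2.29-fold (adjusted p = 0.017) and to TD day 10 by 2.35-fold (adjusted p = 0.013). Ergic3, outside that enzyme, is a protein that cycles between ER and Golgi. Unlike Stt3b, it was lowest in the TD groups. It read 348 and 347 in resting cells, 193 and 184 in TD day 4, 148 and 139 in TD day 10 and 306 and 318 in TI cells. It fell 1.84-fold (adjusted p = 0.016) and 2.42-fold (0.0048) from resting cells to the TD groups and was 2.17-fold higher in TI than in TD day 10 (adjusted p = 0.018).

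**Figure D4:**
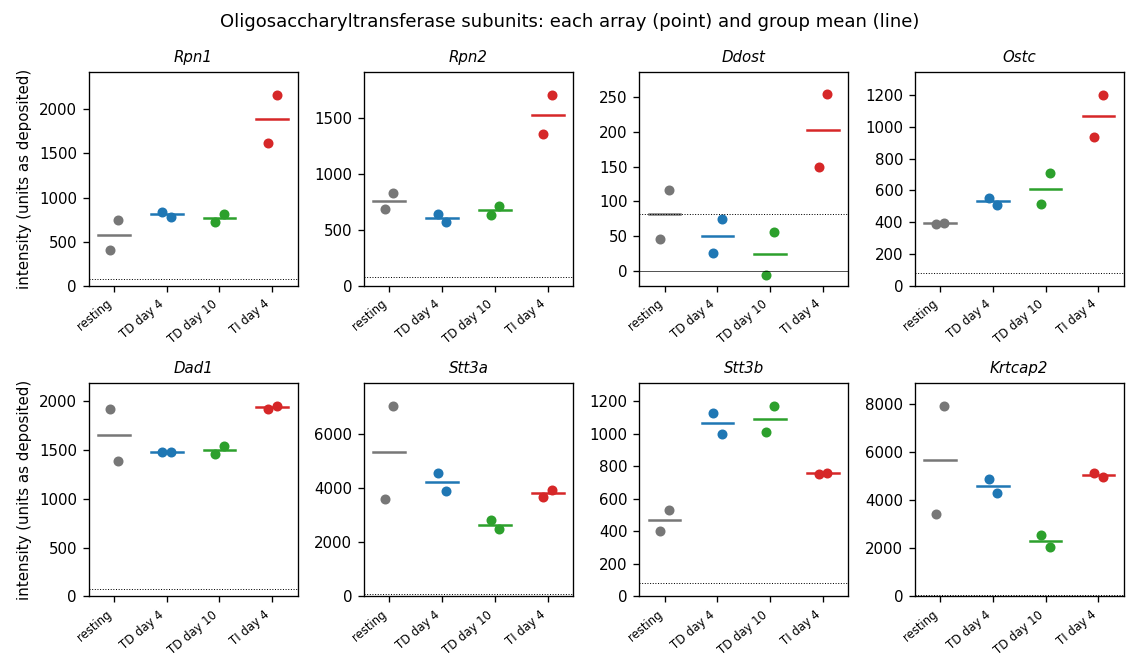
Intensity as deposited (y axis, linear, a separate scale for each gene) on each of the 8 arrays by group (x axis) for the 8 tested oligosaccharyltransferase subunits. Points are arrays, short lines are means of 2 arrays and the dotted line is the floor of 81; for Rpn1, Rpn2, Ddost and Ostc both TI points are above all others, while for Stt3b the TD points are the highest.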

How the data were processed

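The 8 arrays, 2 a group, each held RNA of 1 pool of sorted B cells. Per the labels' protocols, total RNA was extracted with RNAzol and labelled with biotin by the standard Affymetrix protocol. The authors deposited linear-scale intensities, made with software and scaling not given in the sources used here. All values are whole, 30.1% lie at or under 0, and each array's mean without its lowest and highest 2% is 200.2. They were therefore read as scaled and background-subtracted and used as deposited. Low genes are affected most by such subtraction. After 66 control probe sets were left out, values under the 50th percentile (81) were set to it, log2 was taken, and probe sets above it on at least 2 arrays were kept (7253 of 12488). Where an array of the dimmer group lay at the floor, the fold is a lower bound.

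All 8 arrays entered 1 fit of the 4 group means in limma 3.58.1 under R 4.3.3 (4 residual and 2.2 prior degrees of freedom), with two-sided tests and Benjamini-Hochberg adjustment in each of 6 comparisons. The fit was tested on simulated data before use. Between TI and TD day 4 it called 18.8% of simulated 2-fold changes and 83.2% of 4-fold changes, so most 2-fold changes were missed. The members and all lists were chosen with earlier results of these data known. Members named with values are those called (up to 8 per comparison by size) and, in each role, the one with the highest mean and the one with the smallest p between TI and TD day 4; others are marked or serve as contrast. Samples of equal number in different groups did not deviate together (correlations from -0.217 to 0.121). Precision is limited by the number of arrays. Alternatives were quantile normalization, a common median, a floor at the 60th percentile, a pseudocount of 32, no filter, a filter of 4 arrays, a replicate block, the Gapdh ratio as covariate, array weights, only the arrays compared, the least bright probe set, and each array left out.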

Additional observations from a re-analysis of the deposited data

How the results depend on the processing

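As reported, limma called 2 members between TI and TD day 4, 2 between TI and TD day 10, 0 between the TD groups, 4 between TD day 4 and resting, 5 between TD day 10 and resting and 7 between TI and resting. In that order without the comparison of the TD groups, which stayed at 0 in each setting run, counts that moved by over 1.5 times were as follows. With a pseudocount they were 0, 2, 0, 3 and 4, and with no filter 0, 1, 1, 3 and 3. With the Gapdh ratio as a covariate they were 0, 0, 1, 1 and 4, and with array weights 3, 4, 0, 1 and 4. With only the arrays compared all were 0. A common median gave 4 between TI and TD day 10 and 2 between TD day 4 and resting. A floor at the 60th percentile gave 4 between TI and TD day 10, as did the least bright probe set. The latter count includes the dim Gosr2 probe set that passed the filter through the TI arrays alone, so no weight is put on it. The replicate block, in samples whose numbers share nothing but the number, gave 0, 0, 2, 4 and 4. Leaving out 1 array gave 0 to 0 against TD day 4, 0 to 0 against TD day 10, 0 to 0 between the TD groups, 0 to 1 for TD day 4 against resting, 0 to 5 for TD day 10 against resting and 1 to 6 for TI against resting; a group of 1 array is then taken to vary like the others. Quantile normalization and the stricter filter kept every count within that limit. For single genes and comparisons, 426 values kept their direction and side of the threshold, 2 newly passed, 152 no longer passed and 7 changed sign, all for differences between TI and TD day 4 that were called in neither setting. These were Arfgap2 (-0.10 with a pseudocount), Gorasp2 (-0.02) and Srp54b (0.24) with the Gapdh covariate, and, over the fits without 1 array, Arf1 (-0.07 to 0.21), Arfgap2 (-0.44 to 1.21) and Sar1b (-0.18 to 0.06). Where an alternative changes no samples or genes, the cause was not tested. With 2 arrays a group a gene not called is not shown to be unchanged, and readings near the floor give bounds only.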
